A study of Arabidopsis thaliana with 4 samples.

Results

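The UDP-glycosyltransferase (UGT) genes of *Arabidopsis thaliana* were followed in seedlings that lack factors of nonsense-mediated mRNA decay (NMD). A gene was included when its description in the expression table named a UDP-glycosyltransferase or UDP-glucosyltransferase, or when its symbol was UGT and a number, and 1 gene that met the rule was left out. This gave 106 genes of the 22409 loci in the table, and 88 of them were found by symbol alone. Expression was measured by RNA-seq in FPKM, the count of fragments scaled by transcript length and by library size, so that genes of different length stand on 1 scale.

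One library was sequenced for each of 4 genotypes, so no difference below has a replicate check, and no test or p-value is given. The genotypes were wild type (WT, accession Col-0), the insertion mutants *upf1-5* and *upf3-1*, and the double mutant *upf1-5 upf3-1*. All were pooled whole seedlings, 8 days old, grown at 23°C on agar medium with 16 h of light and 8 h of dark and collected at zeitgeber time 16. Each mutation is represented by 1 allele. UPF1, the helicase at the centre of NMD, stood at 23.9 FPKM in WT and 3.18, 30.6, and 8.27 in *upf1-5*, *upf3-1*, and the double mutant. UPF3, which links UPF1 to exon junctions, stood at 20.8, 33.7, 6.36, and 7.10 FPKM in the order WT, *upf1-5*, *upf3-1*, double mutant, which is used for every list of 4 values below. Each gene was therefore lowest in the libraries labelled with its mutation, although neither was at 0 there.

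The libraries also differed in tissue markers. The summed FPKM of 4 genes of green tissue was 31730 FPKM in WT and 26390, 15440, and 14300 in *upf1-5*, *upf3-1*, and the double mutant. One of these 4, *CAB2*, went the other way, from 13.7 to 45.1 FPKM. The sum of 5 root genes was 1952, 1660, 3599, and 1555 FPKM, nearly all of it from *PYK10*, itself a beta-glucosidase gene. The other root genes did not follow this sum. *WER* had 2.347, 4.676, 16.54, and 11.54 FPKM, and *WOX5* had 1.295, 1.156, 3.545, and 2.374. *SCR* had 22.35, 20.18, 11.47, and 15.74 FPKM, and *SHR* had 7.274, 9.213, 8.664, and 8.386. Of 4 seed genes, 3 were in the table, and they summed to 0.265, 0.0805, 6.58, and 25.8 FPKM, while the seed storage gene *CRA1* had no value in WT and *upf1-5*. Of 3 flower genes, 2 were in the table, and they summed to 4.72, 0.743, 1.04, and 0.611 FPKM, so that WT was above every mutant, mostly through *PI*. The part of these shifts in the UGT results was not tested, and in whole seedlings fewer cells of a type and less RNA per cell cannot be told apart.

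UGTs move a sugar from a nucleotide donor, most often UDP-glucose, to a small acceptor such as a hormone, a flavonoid, a lignin precursor, or a foreign compound. The added sugar usually makes the acceptor more soluble, ends its activity, or marks it for storage in the vacuole, and beta-glucosidases can remove it again. NMD degrades mRNAs whose stop codon is read as premature, including some with a long 3′ untranslated region, a splice junction after the stop codon, or an upstream open reading frame, and in plants it also removes many non-coding antisense RNAs.

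Most members share a signature stretch near the C terminus that holds the sugar donor. It was searched as a histidine, any residue, glycine, tryptophan, any residue, and serine in the longest annotated protein of each gene, and 87 of the 106 members had it. Among the 19 without these letters were UGT80B1, a sterol glucosyltransferase, UGT87A1, UGT87A2, and the UGT79B members named below. A looser pattern, with any residue in place of the tryptophan, was in 95 members, and 11 lacked that too. Membership rests on the description or symbol, so not every member need be an enzyme of the numbered UGT families. The last residue of the stretch was glutamine in 83 members, histidine in 3, and asparagine in 1. The UGT78D genes, which attach sugars to flavonols, show how it varies. The coding sequence of their signature stretch is printed from the RefSeq annotation of TAIR10.1, with the last codon in capitals.
UGT78D1, chr1:10816006-10816137, plus strand: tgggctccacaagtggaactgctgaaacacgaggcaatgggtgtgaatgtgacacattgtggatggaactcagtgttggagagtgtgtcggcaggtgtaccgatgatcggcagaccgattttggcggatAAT
UGT78D2, chr5:5608068-5608199, minus strand: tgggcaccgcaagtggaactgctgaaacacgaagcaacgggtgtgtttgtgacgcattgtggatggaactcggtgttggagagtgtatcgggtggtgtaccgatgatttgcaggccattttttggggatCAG
UGT78D3, chr5:5603438-5603569, minus strand: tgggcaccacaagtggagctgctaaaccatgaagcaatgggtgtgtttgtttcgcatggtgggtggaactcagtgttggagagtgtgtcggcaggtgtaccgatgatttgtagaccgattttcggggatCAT
UGT78D4, chr5:5605595-5605726, minus strand: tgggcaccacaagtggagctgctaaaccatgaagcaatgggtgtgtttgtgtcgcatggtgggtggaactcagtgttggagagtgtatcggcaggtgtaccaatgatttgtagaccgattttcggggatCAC
*UGT78D2*, a flavonoid 3-O-glucosyltransferase, ends in a glutamine codon. *UGT78D1*, the flavonol 3-O-rhamnosyltransferase, ends in an asparagine codon, and *UGT78D3*, the flavonol arabinosyltransferase, and *UGT78D4* end in a histidine codon. These genes also differed in level, as described below.

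Members of the family lie side by side in the genome. By TAIR10.1 positions, 66 members formed 22 arrays, in which neighbours lay less than 10 kb apart, and the largest array held 7 genes. Neighbours can be alike enough to share reads. The coding sequences of *UGT79B2* and *UGT79B3*, which act on anthocyanins under stress, were 95.4% identical and shared a run of 131 nt at chr4:13760694-13760824 and chr4:13764231-13764361 on the minus strand. It is shown because a read that falls inside it cannot be assigned to either gene by its own letters. The methods name paired-end reads, so a mate outside the run may still place such a read.
UGT79B2 and UGT79B3: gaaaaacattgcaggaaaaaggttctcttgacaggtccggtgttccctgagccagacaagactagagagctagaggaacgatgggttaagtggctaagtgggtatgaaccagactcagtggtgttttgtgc
*UGT73C3* and *UGT73C4* were 91.3% identical with a shared run of 211 nt. The methods name default settings and no rule of their own for reads from such stretches, so the levels of these pairs are uncertain.

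Over all 4 libraries the family covered a wide range of levels. A value was present for 100 members in WT, 103, 99, and 104 in *upf1-5*, *upf3-1*, and the double mutant. In each library the median of the 88 members that have 4 values and reach 1 FPKM stood at 8.1 to 8.92 FPKM, against 13.6 to 14.7 FPKM for all loci chosen in the same way. The highest member in WT was *UGT74B1*, which makes the desulfoglucosinolate core, with 80.5 FPKM, followed by *UGT88A1* with 73.5, *UGT73B1* with 66.3, *UGT74C1* with 65.1, and *HYR1* with 57.7 FPKM. *UGT74B1* was also the highest in *upf1-5* with 74.1 FPKM, whereas *UGT78D1* led in *upf3-1* with 73.4 and the monolignol enzyme gene *UGT72E1* in the double mutant with 117 FPKM. The sum over all members moved little, with 1273 FPKM in WT and 1240, 1190, and 1292 in *upf1-5*, *upf3-1*, and the double mutant. At the other end, 17 members reached 1 FPKM in no library and 11 lacked a value in at least 1, among them *UGT78D3* and *UGT73C2*.

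A member was called higher or lower when 2 libraries differed at least 2-fold and at least 1 of them reached 1 FPKM. The fold and the FPKM value follow the study's methods, while the choice that either library may reach 1 FPKM was made here, and the false discovery step of the methods was not applied. In *upf1-5*, 11 of the 85 members that could be compared were called higher than in WT and 3 lower, against 7.64% and 2.4% of all loci. In *upf3-1*, 22 of 86 were higher and 15 lower, which is 25.6% and 17.4% of the members against 14.6% and 6.91% of all loci. In the double mutant, again 22 of 86 were higher and 13 lower, or 25.6% and 15.1%, against 15% and 6.91% of all loci. In *upf3-1* and the double mutant the share of called members was above that of all loci in both directions. In *upf1-5* it was not clearly so, since 3 lower calls are near the background, and on the log2(FPKM + 1) scale 4.55% of the members differed by 2-fold or more there, against 4.88% of all loci. On that scale the shares were 34.1% against 15% in *upf3-1* and 28.4% against 15.7% in the double mutant. These shares are a description, since members that pass the filter only through the library in which they are high had to differ, and of the members called higher, 7 of 11, 8 of 22, and 9 of 22 were under 1 FPKM in WT in these comparisons. The comparisons share the WT library.

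The family did not move as a whole. Over the 88 members with 4 values and 1 FPKM in at least 1 library, the median log2 ratio to WT on the log2(FPKM + 1) scale was 0.045, 0.098, and 0.183 in *upf1-5*, *upf3-1*, and the double mutant, against 0.003, -0.011, and 0.009 for the 20048 loci chosen in the same way. The sign in *upf3-1* is not firm, because the median over the members with the signature alone was -0.116 there. The spread was wider, with a median absolute log2 difference of 0.334, 0.663, and 0.638 for the members and of 0.233, 0.40, and 0.394 for all loci. Members called higher were low in WT, with a median of 1.53 FPKM for those higher in *upf3-1* and 1.33 for those higher in the double mutant. Members called lower stood at a median of 12.8 and 11.8 FPKM in WT. The rule itself sets part of this contrast, because a lower call requires at least 1 FPKM in WT and a higher call does not. The WT value is also part of both quantities, and its part in this order was not tested.

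Across the 3 mutants, 48 of the 88 members with 4 values and 1 FPKM in at least 1 library were called at least once, 54.5% against 30.6% of the loci chosen in the same way. One member, *UGT91A1*, was called in both directions. Of the 88, 8 were higher in all 3 mutants, against 4.09% of all loci, and 2 were lower in all 3, against 0.564%. The *upf3-1* and double mutant libraries shared 14 members called higher, 15.9% against 9.48% of all loci, and 9 called lower, 10.2% against 3.15%. Another 7 were called higher in the double mutant and in neither single mutant, 7.95% against 3.68% of all loci. Those lower in the double mutant and in neither single mutant numbered 3, a share of 3.41% near the 3.09% of all loci. All these sets share WT as the control.

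The members higher in all 3 mutants were scarce in WT. *UGT76D1*, which glucosylates dihydroxybenzoic acids, breakdown products of salicylic acid, had 0.149 FPKM in WT and 1.18, 2.28, and 2.02 in *upf1-5*, *upf3-1*, and the double mutant. The WT value corresponds to about 2 fragments, and the ratio of 13.5 in the double mutant had a 95% counting interval of 3.72 to 127. *UGT79B9* had 1.32, 3.43, 6.07, and 11.6 FPKM in the same order, and its ratio of 8.83 in the double mutant had an interval of 5.54 to 14.8. Each mutant library was above WT for these genes, and for *UGT79B9* the levels stood in the order WT, *upf1-5*, *upf3-1*, double mutant.

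*UGT79B8*, a relative of *UGT79B9* on another chromosome, had 0.667, 1.62, 4.66, and 4.89 FPKM. *UGT73D1* had 0.540, 1.76, 1.5, and 4.32 FPKM, and its ratio of 8.0 in the double mutant had an interval of 4.01 to 20.2. In both genes the double mutant was highest, but *UGT79B8* was nearly as high in *upf3-1*, and its ratio of the double mutant to *upf3-1* was 1.05 with an interval of 0.718 to 1.59. *UGT78D4* had 0.637, 2.51, 3.58, and 2.18 FPKM. *UGT76E12* had 1.33, 3.22, 4.42, and 3.66 FPKM, and *UGT76E5* from the same array had 1.17, 2.35, 4.44, and 3.70 FPKM. These 3 genes were highest in *upf3-1*. The last of the 8, AT4G19460, has no symbol in the table and lacked the signature letters, as did *UGT79B8* and *UGT79B9*. It had 0.486, 1.46, 2.01, and 1.19 FPKM.

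Of these 8 genes, 5 were under 1 FPKM in WT, and their WT values correspond to an estimated 2 to 21 fragments. When 1 FPKM was added to every value, 0 of the 8 remained above 2-fold in all 3 mutants, and 3 remained when both libraries of each pair had to reach 1 FPKM. The intervals here are exact, cover counting error only, and rest on the value of 1 fragment estimated from the lowest expressed genes, which was least clear in *upf3-1*.

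**Figure D1:**
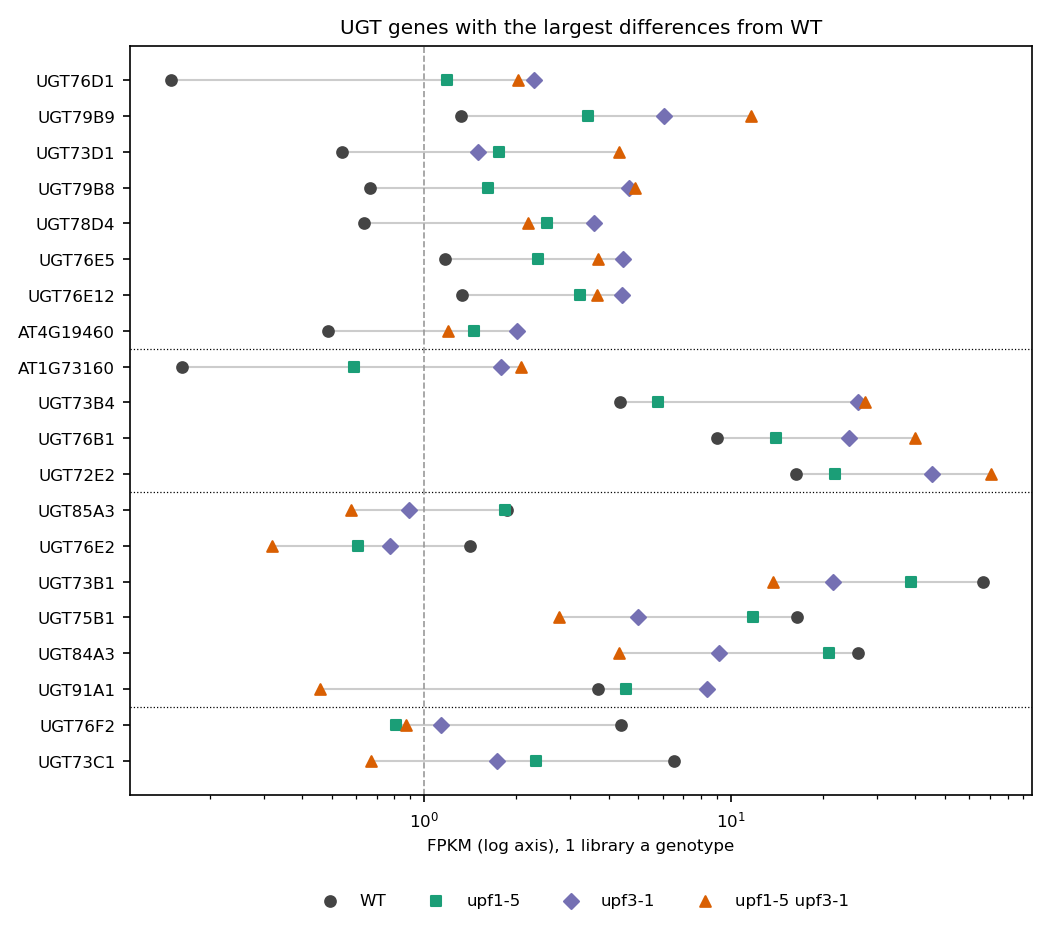
FPKM of 20 UGT genes in each of the 4 libraries, 1 point a library, on a log axis; from top to bottom, dotted lines separate the genes higher in all 3 mutants, other genes with the largest ratios above WT in the double mutant, others with the largest below WT, and the genes lower in all 3 mutants. The dashed line marks 1 FPKM, and the WT points of *UGT76D1* and AT1G73160 are farthest to the left with 0.149 and 0.163 FPKM.

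Both members lower in all 3 mutants were well above 1 FPKM in WT, the least that the rule requires there for a lower call. *UGT73C1*, an enzyme that glucosylates cytokinins and trinitrotoluene in vitro, had 6.52 FPKM in WT and 2.31, 1.73, and 0.671 in *upf1-5*, *upf3-1*, and the double mutant. Its level was lower in the double mutant than in WT by 9.72-fold, with an interval of 4.88 to 20.2, and lower than in *upf3-1* by 2.57-fold, with an interval of 1.08 to 6.12. *UGT76F2* had 4.39, 0.807, 1.14, and 0.874 FPKM, so that the 3 mutants lay close together and far below WT. The ratio of the double mutant to *upf1-5* was 1.08 for this gene, with an interval of 0.445 to 2.57. The WT values rest on an estimated 95 and 72 fragments. *UGT76E2* had 1.41, 0.610, 0.772, and 0.320 FPKM and was called lower in *upf1-5* and the double mutant, and its ratio in *upf3-1* was 0.548.

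By known substrate or response, 30 members could be placed, and 29 of them had a value in every library. In each mutant 28 of them could be compared with WT. In *upf1-5*, 2 were higher and 0 lower, or 7.14% higher against the 7.64% of all loci. In *upf3-1*, 6 were higher and 3 lower, or 21.4% and 10.7% against 14.6% and 6.91%. The double mutant had 7 higher and 1 lower, or 25% and 3.57% against 15% and 6.91%. With so few genes these shares are a description of the list. The groups are taken in turn.

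Among the genes of salicylic acid and defence, 2 of 5 were called. *UGT76B1*, which glucosylates isoleucic acid and salicylic acid, had 9.04 FPKM in WT and 14.1, 24.3, and 40.0 in *upf1-5*, *upf3-1*, and the double mutant, a ratio of 4.42 in the last. *UGT76D1* was described above. *UGT74F2*, which forms the glucose ester of salicylic acid, moved the other way without passing the threshold, at 39.1, 29.9, 19.9, and 26.3 FPKM. *UGT74F1*, which forms the salicylic acid glucoside, lay between 4.0 and 6.59 FPKM, and *UGT89A2*, which attaches xylose to dihydroxybenzoic acids, between 6.85 and 9.10 FPKM.

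The genes for monolignol glucosylation, which act on precursors of lignin, differed in which mutants were high. *UGT72E1* had 35.4 FPKM in WT and 31.1, 33.5, and 117 in *upf1-5*, *upf3-1*, and the double mutant. It was the highest member of the family in that library, while the other 3 libraries lay within 31.1 to 35.4 FPKM. *UGT72E2* had 16.3, 21.9, 45.4, and 70.7 FPKM and was called in *upf3-1* and in the double mutant, with ratios of 2.78 and 4.34. *UGT72E3* was much lower, at 0.816, 1.08, 1.63, and 1.79 FPKM, with a ratio of 2.2 in the double mutant.

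Among 3 genes for sinapate and other hydroxycinnamates, 1 was level and 2 were called. *UGT84A2*, the sinapate glucosyltransferase, lay between 37.0 and 51.3 FPKM. *UGT84A3* had 26.1, 20.9, 9.17, and 4.31 FPKM and was thus lower in the double mutant by 6.05-fold. *UGT84A1*, its neighbour on chromosome 4, had 1.72 FPKM in WT and 5.06, 7.76, and 0.908 in *upf1-5*, *upf3-1*, and the double mutant, so that both single mutants were above WT and the double mutant was not. 

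Of the 5 flavonoid genes on the list, 4 could be compared in every mutant and none of them was called, while *UGT78D3* lacked a value in WT and in *upf3-1*. *UGT78D4*, which belongs to the same small family but has no substrate on the list, was called higher in all 3 mutants, as described above. *UGT78D1* had 47.3, 66.2, 73.4, and 54.0 FPKM, and *UGT78D2* had 22.6, 29.1, 41.0, and 23.1 FPKM. *UGT89C1*, the flavonol 7-O-rhamnosyltransferase, had 19.1, 36.0, 35.1, and 25.8 FPKM. *UGT75C1*, which glucosylates anthocyanins, had 3.78, 5.34, 5.29, and 4.87 FPKM. In all 4 listed genes WT was the lowest library and the double mutant lay below both single mutants, with ratios to WT of 1.02 to 1.35 in the double mutant. This order is not firm for each gene. The counting intervals of *UGT75C1* include 1 in all these comparisons, as does that of *UGT78D2* in the double mutant against WT (0.871 to 1.2). The non-coding AT1G06002, opposite *UGT89C1*, had 28.4, 53.3, 45.2, and 51.5 FPKM, and reads of these 2 genes may not have been told apart.

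Hormone genes other than those of salicylic acid were lower than WT or level in *upf3-1*. In the double mutant, *UGT74E2*, *UGT71C5*, and *UGT71B6* had values above WT. *UGT85A1*, which O-glucosylates zeatin, had 32.4, 23.4, 13.2, and 16.9 FPKM and was called lower in *upf3-1* alone, by 2.45-fold. The cytokinin N-glucosyltransferase genes *UGT76C1* and *UGT76C2* lay between 7.40 and 11.8 FPKM in every library and were not called. *UGT74E2*, which glucosylates the auxin indole-3-butyric acid, had 7.44 FPKM in WT and 4.05, 4.0, and 17.5 in *upf1-5*, *upf3-1*, and the double mutant. It was lower than WT in each single mutant, without being called, and higher in the double mutant by a ratio of 2.35 to WT and 4.37 to *upf3-1*.

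*UGT74D1*, another auxin glucosyltransferase, had 22.1, 24.2, 17.4, and 12.5 FPKM. *UGT71C5*, which glucosylates abscisic acid, had 16.5, 17.3, 14.7, and 27.5 FPKM. *UGT71B6*, of the same activity, was low, at 1.17, 1.82, 0.482, and 2.09 FPKM, and was called lower in *upf3-1*. The counting interval of that ratio, 0.134 to 1.33, includes 1. *UGT73C6*, which acts on brassinosteroids and flavonols, stayed under 1 FPKM in every library.

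Of the genes that respond to oxidative stress and foreign compounds, *UGT73B4* had 4.37 FPKM in WT and 5.81, 25.9, and 27.5 in *upf1-5*, *upf3-1*, and the double mutant. The ratios to WT were 5.94 in *upf3-1* and 6.29 in the double mutant, so both libraries with the *upf3-1* mutation were high and the others low. *UGT73B3* had 8.28, 9.50, 18.3, and 15.4 FPKM and was called in *upf3-1*. *UGT73B5*, the neighbour of *UGT73B4*, had 7.91, 8.22, 11.5, and 12.2 FPKM.

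One annotated model of *UGT73B5* in TAIR10.1 has its last exon in *UGT73B4*, at chr2:6763246-6763398, so the spans of these genes overlap by 1866 nt and reads from that exon could be assigned to either. The window before *UGT73B4* lies in an intron of that model. The 250 bases before each gene are shown because these neighbours differed in response. Capitals mark TGACG on either strand, the letters that TGA factors of the detoxification response bind.
UGT73B4, chr2:6761385-6761634, plus strand: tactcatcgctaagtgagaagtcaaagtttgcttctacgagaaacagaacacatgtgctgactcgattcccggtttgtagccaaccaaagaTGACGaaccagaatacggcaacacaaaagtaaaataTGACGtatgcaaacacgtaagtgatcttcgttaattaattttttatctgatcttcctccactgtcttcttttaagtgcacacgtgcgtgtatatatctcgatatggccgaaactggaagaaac
UGT73B5, chr2:6758180-6758429, plus strand: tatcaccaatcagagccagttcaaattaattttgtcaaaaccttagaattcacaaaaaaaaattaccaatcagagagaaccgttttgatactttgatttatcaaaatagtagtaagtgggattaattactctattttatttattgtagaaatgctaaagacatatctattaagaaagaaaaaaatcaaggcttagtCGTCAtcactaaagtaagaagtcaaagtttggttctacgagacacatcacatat
The window of *UGT73B4* held 2 copies and that of *UGT73B5* held 1. Over the family, TGACG was in 21.7% of the 106 windows, against 18.6% of 27443 protein-coding genes. It was in 5 of the 22 windows of members higher in the double mutant and in 1 of the 13 of members lower there. TTGAC, the core that WRKY factors bind, was in 51.9% of the members' windows and 44.9% of all, in 13 of the 22 higher and in 3 of the 13 lower. CACGTG, the G-box, was in 7.55% and 6.49%, in 1 of the 22 and in 2 of the 13. TTGAC and TGACG can overlap, as in TTGACG. These matches describe the letters in the windows.

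Of the remaining roles, *UGT74B1* had 80.5, 74.1, 61.4, and 68.1 FPKM, the sterol gene *UGT80B1* lay between 9.79 and 13.2 FPKM, and *UGT87A2*, which affects flowering time, had 23.9, 24.4, 18.6, and 27.3 FPKM. None of the 3 was called.

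Further members with large differences had no substrate on the list. AT1G73160, which lacked the signature letters, had 0.163, 0.590, 1.78, and 2.07 FPKM and was called in *upf3-1* and the double mutant. Its WT value corresponds to about 2 fragments, and the ratio of 12.7 in the double mutant had an interval of 3.86 to 131. *UGT85A3* had 1.87, 1.83, 0.894, and 0.576 FPKM and was called lower in those same libraries. The interval of its ratio to WT includes 1 in *upf3-1* (0.199 to 1.05) but not in the double mutant (0.114 to 0.652). Of the highest members in WT, *UGT88A1* had 73.5, 62.6, 39.3, and 38.3 FPKM and *UGT74C1* had 65.1, 73.1, 50.9, and 39.3 FPKM, and neither was called.

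**Figure D2:**
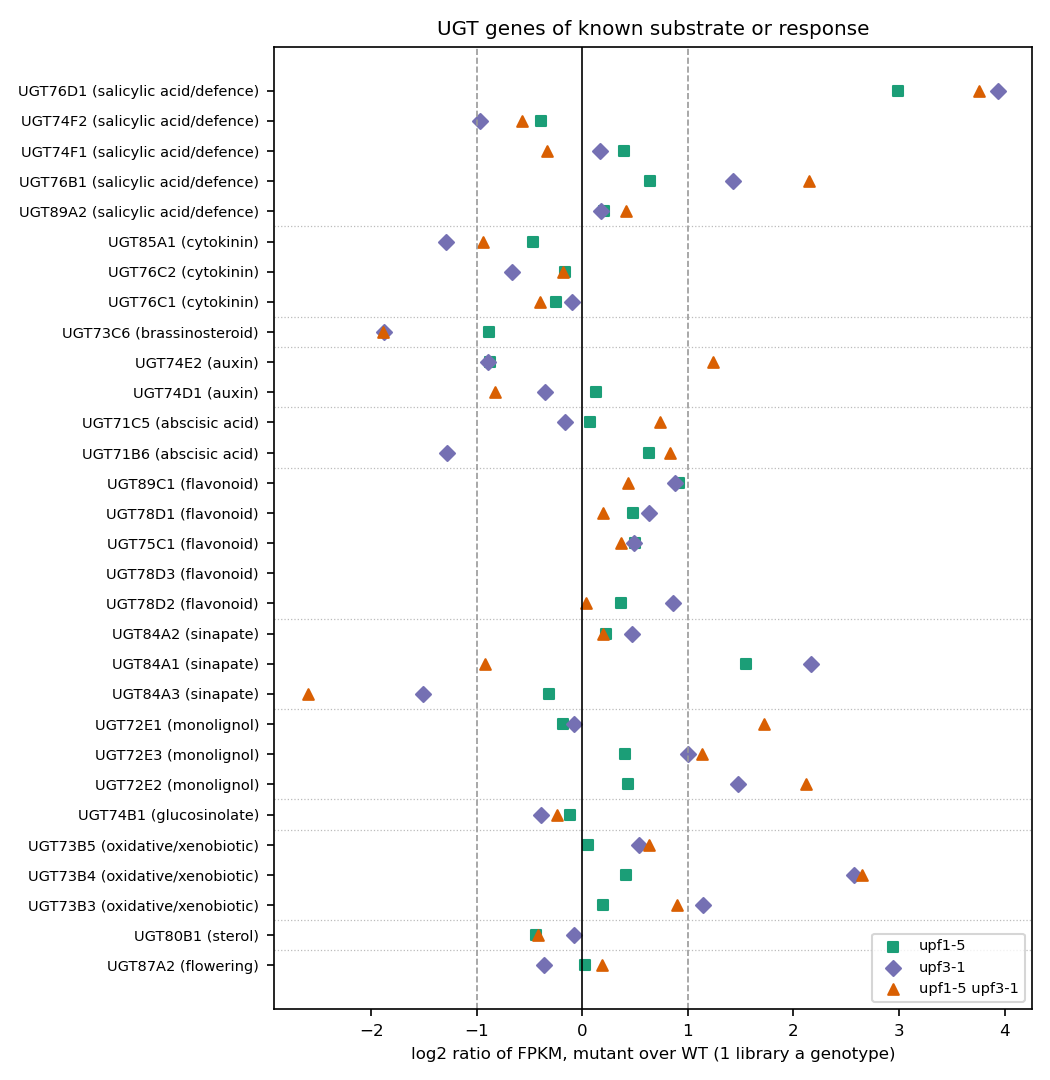
The log2 ratio of FPKM of each mutant to WT for 30 UGT genes, 1 point a mutant library, grouped by substrate or response; *UGT78D3* has no point because WT has no value. Dashed lines mark a 2-fold difference, and *UGT76D1* lies farthest to the right and *UGT84A3* in the double mutant farthest to the left.

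The phylogenetic groups of the family hold few genes each, so their counts are given with no comparison between groups. In group A, the UGT79 and UGT91 genes that often add a sugar to a sugar, 4, 5, and 4 of 11 were higher in *upf1-5*, *upf3-1*, and the double mutant, and 1 was lower in the last. In group H, the UGT76 genes, 3, 6, and 6 of 18 were higher and 2, 1, and 3 were lower. In group G, the UGT85 genes, none of 6 was higher, and 3 were lower in *upf3-1* and 2 in the double mutant. Group E, the UGT71, UGT72, and UGT88 genes, held 2 higher and 4 lower of 19 in *upf3-1*, and 5 higher and 0 lower in the double mutant. In group D, the UGT73 genes, 3 of 11 were higher and 3 lower in *upf3-1*, and 2 were higher and 2 lower in the double mutant. In group L, the UGT74, UGT75, and UGT84 genes, 3 of 14 were higher and 2 lower in *upf3-1*, and 1 was higher and 2 lower in the double mutant. The group sizes count every member, also those that could not be compared. The shares for all loci given above count only loci that could be compared, so they stand on another base.

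Members of 1 array could differ in direction. In 4 of the 22 arrays, at least 1 member was called higher and at least 1 lower over the 3 mutants, and within a single mutant this held for 0, 3, and 1 arrays. The same count for neighbouring genes outside the family was not made, so these numbers are a description. In the array of 7 genes on chromosome 3 between positions 17185453 and 17212541, *UGT76E12*, *UGT76E3*, and *UGT76E5* were called higher in *upf3-1*. *UGT76E3* had 6.85, 9.84, 23.5, and 15.2 FPKM. *UGT76E11*, which lies between them, had 15.4 FPKM in WT and 12.5, 9.23, and 4.77 in *upf1-5*, *upf3-1*, and the double mutant, lower there by 3.22-fold.

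In the array of 3 genes on chromosome 4 around *UGT73B1*, *UGT73B3* was high and its neighbours low in *upf3-1*. *UGT73B1* had 66.3, 38.8, 21.5, and 13.7 FPKM, lower in the double mutant by 4.84-fold. *UGT73B2*, which lies between them, had 46.8, 37.2, 27.0, and 28.0 FPKM and was not called. An array on chromosome 1 held *UGT75B2*, at 0.458, 0.433, 1.82, and 0.688 FPKM, and *UGT75B1*, at 16.5, 11.8, 4.98, and 2.76 FPKM.

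Other arrays had calls in 1 direction. In the array of 5 genes around *UGT73C1*, the 4 genes with a value in WT had lower values in every mutant than in WT, but of these only *UGT73C1* and, in *upf3-1*, *UGT73C3* were called. *UGT73C3* had 1.92, 1.36, 0.354, and 1.38 FPKM, with counting intervals of the ratio to WT that include 1 in *upf1-5* (0.368 to 1.23) and the double mutant (0.406 to 1.24). *UGT73C4* and *UGT73C6* were under 1 FPKM everywhere, and the intervals of *UGT73C6* include 1 in all 3 mutants, as does that of *UGT73C4* in *upf1-5*. In the array of *UGT71B1* and *HYR1* on chromosome 3, 4 of 5 genes were called lower in *upf3-1*, against 6.91% of all loci. This array is 1 of 22, and the count describes it only. *HYR1*, whose enzyme activates the growth inhibitor hypostatin by glucosylation, had 57.7, 41.1, 21.0, and 23.3 FPKM, *UGT71B1* had 34.9, 27.0, 16.3, and 19.3, and *UGT71B7* had 12.8, 8.67, 3.41, and 6.86 FPKM. In all 3 of these genes *upf3-1* was the lowest library. The call of *UGT71B6* in *upf3-1* rests on an estimated 5 fragments against 16 in WT, with an interval of 0.134 to 1.33 that includes 1.

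**Figure D3:**
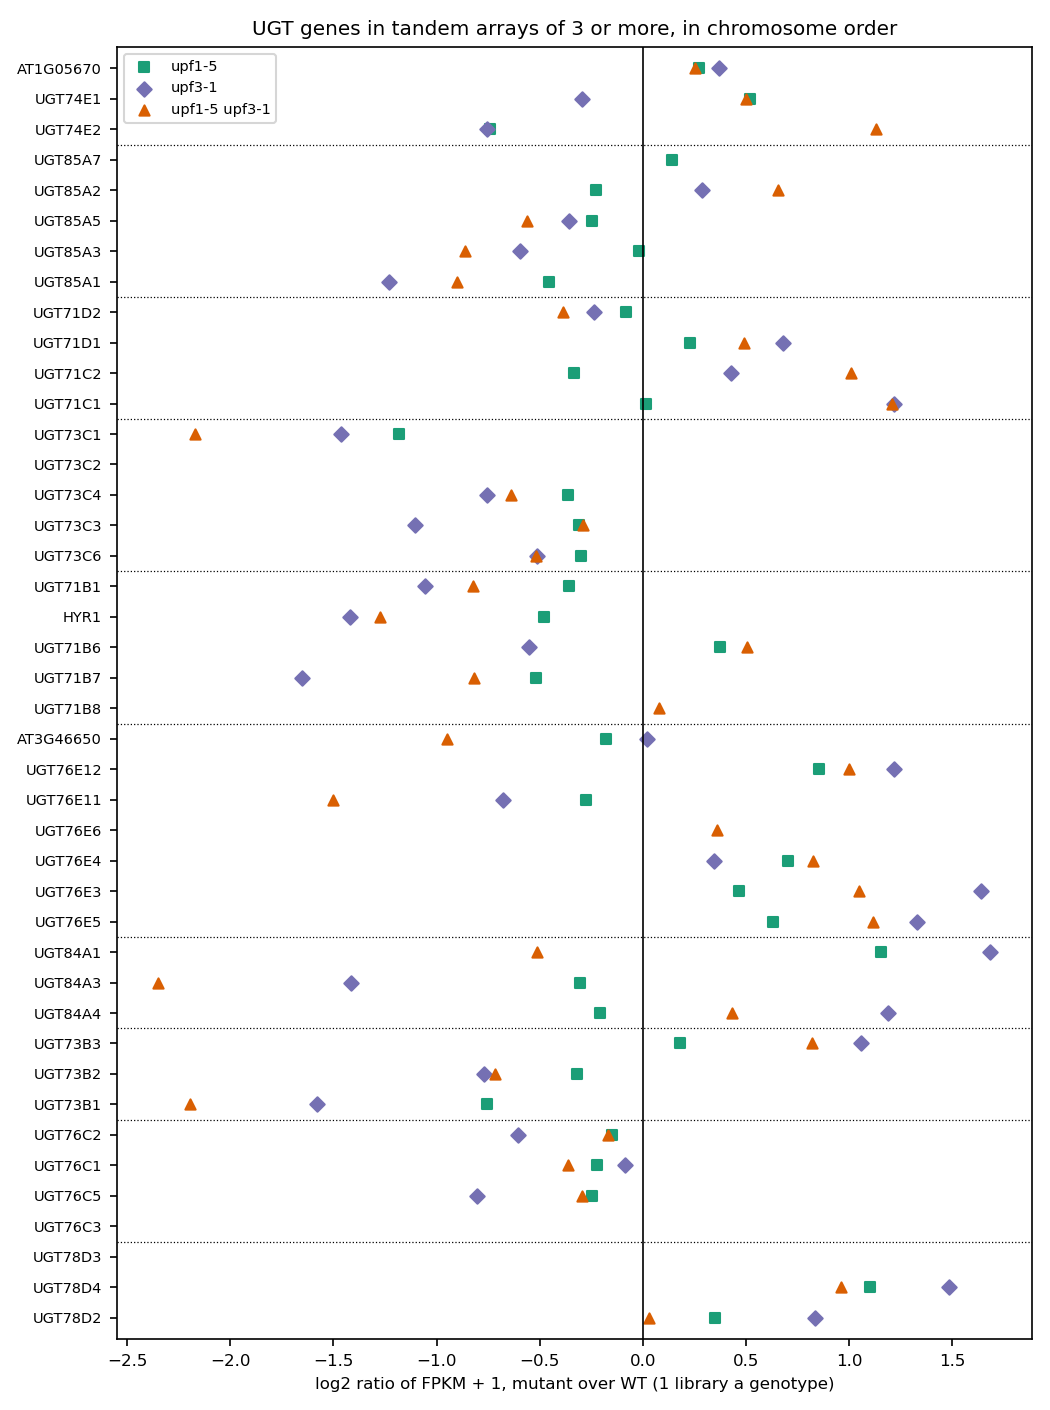
The log2 ratio of FPKM + 1 of each mutant to WT for the UGT genes in arrays of 3 or more, in chromosome order, with dotted lines between arrays and 1 point a mutant library; genes without a value in WT have no point. The points of the array from *UGT73C1* to *UGT73C6* all lie left of 0, whereas those of *UGT84A1* and *UGT84A3* lie on opposite sides in *upf3-1*.

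Some members lie on the opposite strand of another gene. By TAIR10.1, 13 members overlapped a gene of the other strand by 1000 nt or more, and 11 of these partners had values. Of the 13 partners, 10 were annotated as long non-coding RNA. The labels name a stranded kit, but the methods name default settings for mapping and quantification, which in these tools treat a library as unstranded, so reads of a member and its partner may not have been told apart.

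The clearest case was *UGT76E11*. The non-coding AT3G46668, which covers the whole gene, had 6.225 FPKM in WT and 16.9, 23.15, and 26.3 in *upf1-5*, *upf3-1*, and the double mutant, while *UGT76E11* had 15.4, 12.5, 9.23, and 4.77 FPKM. The partner was lower than the UGT gene in WT and higher in all 3 mutants, with ratios to WT of 2.71, 3.72, and 4.22. AT2G36792, opposite *UGT73C6*, had 10.9, 28.2, 16.3, and 29.3 FPKM, while *UGT73C6* had 0.700, 0.380, 0.191, and 0.189.

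Some other pairs moved together, and some did not. AT1G05562, opposite *UGT75B1*, had 79.2, 60.1, 38.3, and 35.2 FPKM, and so was lower in the double mutant by 2.25-fold where *UGT75B1* was lower by 5.99-fold. AT2G31751, opposite *UGT74D1*, had 27.3, 28.3, 20.4, and 11.9 FPKM, close to the values of *UGT74D1* in each library. The partner of *UGT76E12*, AT3G46658, had 0.454, 0.833, 1.12, and 0.521 FPKM, a ratio to WT of 2.46 in *upf3-1*, where *UGT76E12* was also highest. In the double mutant this partner had a ratio of 1.15 and *UGT76E12* of 2.75. In *upf3-1*, *UGT85A4* had a ratio of 0.283 and its partner AT1G78265 of 1.35, and *UGT71B6* had 0.412 and its partner AT3G21781 had 1.53.

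**Figure D4:**
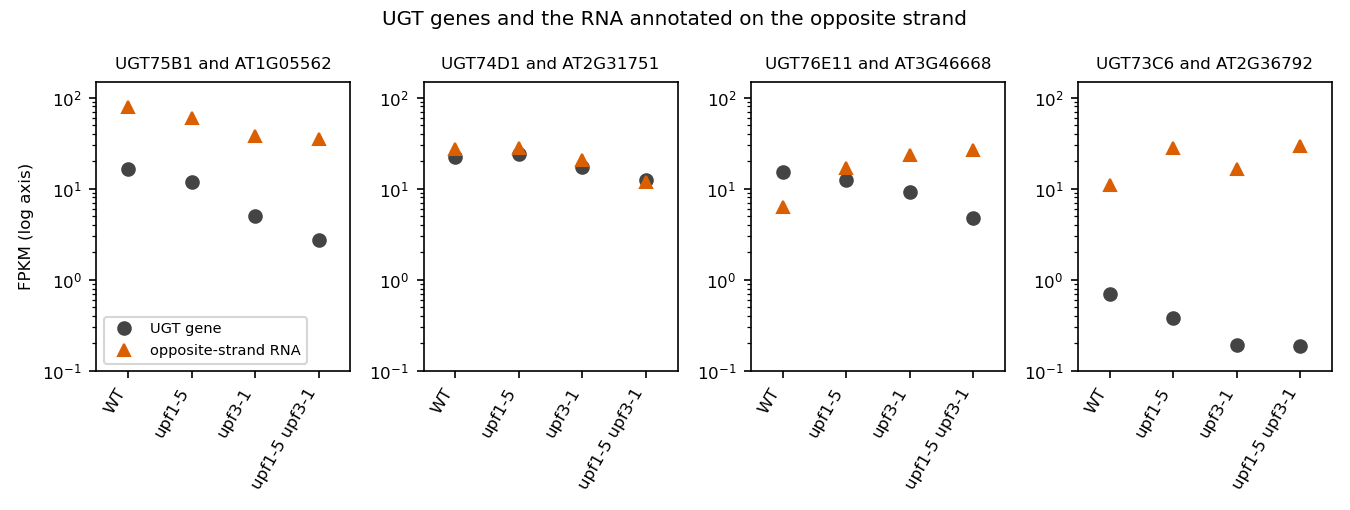
FPKM of 4 UGT genes (circles) and of the RNA annotated on the opposite strand (triangles) in each library, on a log axis, 1 library a genotype. In the panel of *UGT76E11* the circles go down from 15.4 to 4.77 FPKM where the triangles go up from 6.225 to 26.3 FPKM, and in that of *UGT75B1* both go down.

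The double mutant was also compared with each single mutant. Against *upf1-5*, 13 of 85 members were higher and 10 lower, with 9.64% and 4.47% of all loci. Against *upf3-1*, 10 of 85 were higher and 9 lower, with 6.67% and 4.69% of all loci. *UGT72E1*, *UGT74E2*, *UGT73D1*, *UGT91C1*, and *UGT76C3* were higher than in either single mutant, and the ratio of *UGT72E1* was 3.76 to *upf1-5* and 3.49 to *upf3-1*. *UGT91C1* had 0.763, 0.338, 0.518, and 2.74 FPKM. *UGT76C3* had no value in WT and 0.209, 0.899, and 2.2 FPKM in the mutants.

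Each mutation could thus be followed in 2 backgrounds that share no library. For the 88 members, the *upf3-1* effect in WT and in *upf1-5* had a Pearson correlation of 0.470 and a Spearman correlation of 0.494 on the log2(FPKM + 1) scale, against 0.497 and 0.491 over 20048 loci. The signs were the same for 64.8% of the members and 66.6% of the loci. For the *upf1-5* effect the correlations were -0.132 and -0.115 for the members and 0.117 and 0.031 for all loci. Points share these 4 libraries, and genes do not stand in for replicates.

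In 3 members the *upf3-1* mutation went with a higher level in WT and a lower level in *upf1-5*, each at 2-fold or more, and for 2 of them the same held for *upf1-5*. These were *UGT84A1*, *UGT79B3*, and *UGT91A1*. The share of all loci with such opposite calls was not counted, so the number describes these members only. *UGT91A1* had 3.70 FPKM in WT and 4.56, 8.40, and 0.456 in *upf1-5*, *upf3-1*, and the double mutant. Its ratio of the double mutant to *upf3-1* was 0.0543, with an interval of 0.0184 to 0.117.

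*UGT79B3* had 0.666, 1.52, 1.6, and 0.0731 FPKM, and the last value corresponds to about 1 fragment. Its ratios of 2.29 and 2.39 in the single mutants had intervals that include 1, from 0.963 to 5.34 and from 0.942 to 5.58. *UGT79B2*, which shares the run of 131 nt printed above, had 25, 30.1, 29.1, and 21.4 FPKM.

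**Figure D5:**
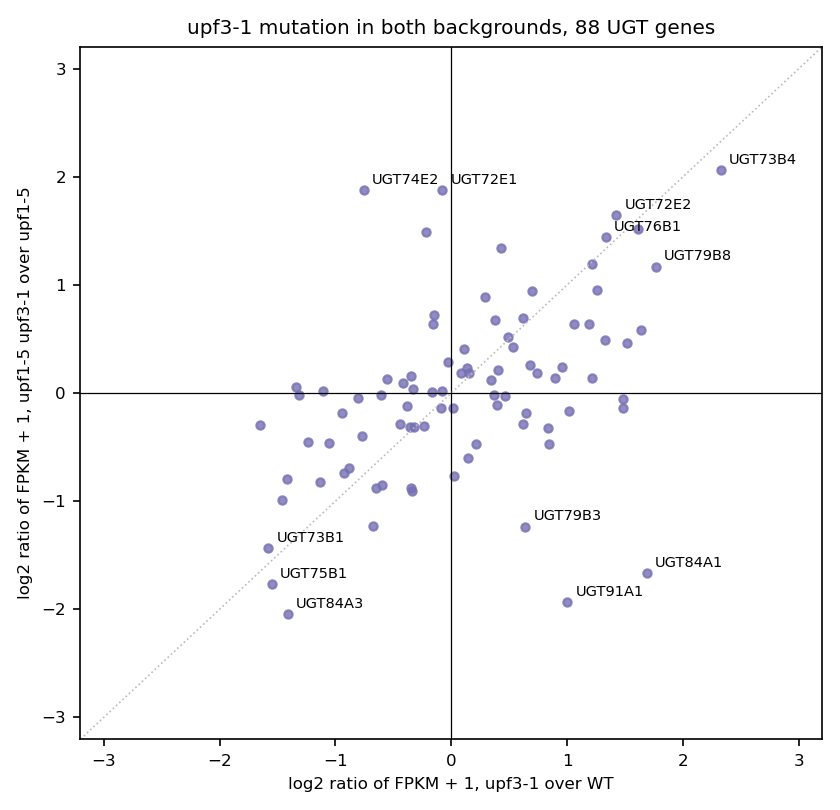
The log2 ratio of FPKM + 1 between *upf1-5 upf3-1* and *upf1-5* (vertical axis) against that between *upf3-1* and WT (horizontal axis) for 88 UGT genes, 1 point a gene; the dotted line marks equal effects. *UGT84A1*, *UGT79B3*, and *UGT91A1* lie in the lower right, while *UGT73B4* lies near the line in the upper right.

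Features that NMD may recognise were less frequent among the members than among all loci. In TAIR10.1, 27 of the 88 members (30.7%) had a model with a 3′ untranslated region of at least 350 nt, a splice junction that lies over 50 nt downstream of the stop, or an upstream reading frame of at least 35 codons, against 51.6% of all loci with a model. Of the 106 members, 51 had 1 exon and 43 had 2, and the part of gene structure in this difference was not tested. The median log2 ratio of members with a feature was 0.069, 0.015, and 0.184 in *upf1-5*, *upf3-1*, and the double mutant, and that of the 61 without was -0.016, 0.153, and 0.062. Over all loci with a model these medians were -0.000, -0.011, and 0.018 with a feature and -0.003, -0.053, and -0.028 without. Of the 8 members higher in all 3 mutants, 2 had such a feature, *UGT78D4* and *UGT76E12*. RNA stability was not measured, so a slower decay and a higher synthesis cannot be told apart.

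The genes that supply UDP-sugars to these enzymes were followed as a list of 16, all in the table. In *upf1-5*, *upf3-1*, and the double mutant, 15, 16, and 16 of these could be compared with WT. Of them, 1, 6, and 3 were higher and 0 were lower, against 7.64%, 14.6%, and 15% of all loci called higher. With so few genes these counts are a description of the list. The median log2 ratio of the 16 genes was 0.046, 0.428, and 0.308, against 0.003, -0.011, and 0.009 for all loci. *SUS4*, a sucrose synthase gene, had 0.368, 0.540, 1.56, and 3.43 FPKM, and *SUS3*, another, had 2.54, 2.49, 8.10, and 13.5 FPKM. *RHM1*, which makes UDP-rhamnose, had 70.3, 98.2, 156.0, and 101.3 FPKM, highest in *upf3-1*. *UGT78D1*, whose enzyme uses that sugar, was highest in the same library but was not called. *UGT89C1*, also a rhamnosyltransferase gene, was highest in *upf1-5*, at 36.0 FPKM against 35.1 in *upf3-1*. Of the related supply genes, *MUM4* had 29.4, 28.1, 33.7, and 22.8 FPKM, and *RHM3* had 15.8, 14.8, 10.9, and 12.5. A link between sugar supply and use was not tested.

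The beta-glucosidase list took genes by a BGLU symbol or by that word in the description, and 60 were in the table. It was not limited to enzymes that act on UGT products, and it holds genes such as *PDCB1*, *PDCB5*, *BXL2*, and *ATBG_PPAP*. In the same order of mutants, 52, 54, and 53 listed genes could be compared with WT. Of them, 5, 10, and 10 were higher and 1, 6, and 2 lower. The median log2 ratio was -0.025, -0.046, and -0.156, against 0.003, -0.011, and 0.009 for all loci. *BGLU28* had 2.80, 4.87, 11.6, and 24.1 FPKM, whereas *BGLU11* had 61.2, 33.8, 16.9, and 28.5 FPKM. The background shares for all loci are those given for the same comparisons above.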

How the data were processed

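RNA-seq was made from 1 library a genotype. Per the methods and labels, the authors mapped reads to TAIR10 with TopHat and compared every pair of libraries with Cufflinks tools. The deposited table gives, per gene and pair, the summed FPKM of both libraries, the fold of the higher over the lower, its direction, and a q-value. The q-values are the authors' own findings and were not used, and the deposited fold served only to recover the FPKM of each library. Most values were recovered from more than 1 pair, and over 77490 such values from 1 FPKM upward these estimates differed by 0.749% at most. The double mutant is taken to be the library called NMD2 in the table. The labels name a poly-A kit and the methods a total RNA kit, and which applies was not settled.

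A call needed a fold of 2 and 1 FPKM in at least 1 library. Medians used log2(FPKM + 1). Values missing in a library stayed missing. The table holds no counts, so fragments were estimated from the steps between the values of low genes, at 1 FPKM about 13.8, 11.3, 9.24, and 13.6 fragments for a transcript of 1.6 kb, and the 95% intervals are exact for those numbers and cover counting error only. Gene models, promoters, and coding sequences came from RefSeq TAIR10.1. Genes were named if called alike in all 3 mutants, among the 8 largest differences each way in the double mutant or the 5 highest in WT, of known role, in an array with the first kind, or opposite in 2 backgrounds. Others named were chosen after their values were seen. Members and lists were chosen with earlier results of these data known. The recovery was tested on simulated data. Other folds, filters, pseudocounts, scalings, and member rules were tried. Python 3.11.15, pandas 2.3.3, NumPy 2.4.6, SciPy 1.17.1, Biopython 1.88, and matplotlib 3.10.9 were used.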

Additional observations from a re-analysis of the deposited data

Results flagged for a closer look

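In 3 members the *upf3-1* mutation went with a higher level in WT and a lower level in *upf1-5*, each at 2-fold or more. For *UGT84A1* and *UGT79B3* the same held for *upf1-5*, but not for *UGT91A1*, whose ratio of *upf1-5* to WT was 1.23 with an interval of 0.816 to 1.83. With 1 library a genotype the difference between backgrounds was not tested, and the share of all loci with such opposite calls was not counted. The log2 ratio in the double mutant minus the sum of those in both single mutants was -4.51 for *UGT91A1*, -4.65 for *UGT84A1*, and -5.64 for *UGT79B3*. On the log2(FPKM + 1) scale these values were -2.94, -3.35, and -1.87, so that *UGT79B3* was farthest from 0 on the first scale and nearest to 0 on the second. For *UGT84A1* the ratio of the double mutant was 0.179 to *upf1-5*, with a counting interval of 0.0891 to 0.325, and 0.117 to *upf3-1*, with an interval of 0.0584 to 0.208. For *UGT79B3* the double mutant value rests on about 1 fragment, and its interval against *upf1-5* was 0.00111 to 0.292, while its intervals for both single mutants against WT include 1.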

How the results depend on the processing

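Counts of members are given as higher, then lower, for *upf1-5*, *upf3-1*, and the double mutant against WT, the double mutant against *upf1-5* and against *upf3-1*, and all 3 mutants. With 1 FPKM required in both libraries, the counts that moved by over 1.5 times were 4 and 1 in *upf1-5*, 14 higher in *upf3-1*, 13 and 7 in the double mutant, 4 lower against *upf1-5*, 5 and 4 against *upf3-1*, and 3 and 0 in all 3. With a fold of 1.5 they were 19 and 9 in *upf1-5*, 24 lower in *upf3-1*, 25 lower in the double mutant, 24 and 18 against *upf1-5*, 17 and 17 against *upf3-1*, and 5 lower in all 3. With a fold of 4 they were 1 and 1, 8 and 1, 8 and 7, 4 and 5, 3 and 3, and 1 and 0. With a pseudocount of 1 FPKM, and also with missing values set to 0, they were 2 higher in *upf1-5*, 6 and 3 against *upf3-1*, and 0 higher in all 3. With no FPKM filter, 6 were lower in *upf1-5*. Among members with the signature, 6 were higher in *upf1-5* and 5 in all 3, and the medians were -0.116 in *upf3-1* and 0.076 in the double mutant; this rule and the minimum of 20 fragments were chosen after seeing the data. The cause was not tested. The other 112 values moved less, 44 moved as given, and 0 calls of named genes reversed. No paired analysis was possible because each genotype has 1 library, and for the same reason none could be left out. Depth limits the genes under 1 FPKM most.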
